A study of Mus musculus with 16 samples.

Results

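The mammalian apparent LTR retrotransposons (MaLR) of mouse were examined in RNA from sorted bone marrow progenitors of DNMT3A R882H and WT donors under azacitidine or NaCl. The deposited count tables hold 30141 gene rows and 1201 repeat rows, and each repeat row sums the reads over all counted copies of a named repeat. A repeat row was taken as MaLR where its name begins with ORR1, with MTA, MTB, MTC, MTD or MTE (together the MT rows), with MLT1, or with MST or THE1. This gave 101 of the 1201 repeat rows: 29 ORR1, 19 MT and 53 MLT1 rows, and 0 MST or THE1 rows. Of these, 52 were rows of the long terminal repeat (LTR) and 49, with names that hold -int, were rows of the internal sequence between the LTRs. The choice used names and no measured value. The rows stand for many copies across the genome, so no position is given for any of them, and the tables used here hold no repeat sequence to print.

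MaLR elements are retrotransposons with LTRs that lack the genes for their own spread and are thought to have used the enzymes of ERVL retroviruses. MLT1 is the oldest branch, shared by placental mammals, whereas ORR1 and MT expanded in rodents, with the A subfamilies the youngest of each. An LTR carries promoter and polyadenylation signals. Recombination between both LTRs of a copy removes the internal part, so most copies in the genome are solitary LTRs. In mouse oocytes and early embryos MT LTRs serve as promoters of many genes, among them an MTC copy that starts the oocyte form of Dicer. In somatic cells such LTRs are usually silenced by DNA methylation, kept up by DNMT1, and by histone marks laid down through TRIM28 and SETDB1. Azacitidine is a nucleoside analogue that is built into DNA and traps DNA methyltransferases.

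RNA came from LSK cells, which are lineage-negative, Sca1-positive and Kit-positive, the marrow fraction that holds stem cells and early progenitors. R882H cells carried the mouse WT DNMT3A together with human DNMT3A with the R882H change, knocked into the endogenous locus behind a stop cassette that Mx1-Cre removes once poly(I:C), an interferon inducer, is given; WT cells carried mouse DNMT3A without it. The labels give poly(I:C) at 15 µg per g for Cre-positive and Cre-negative donors alike; they also describe another poly(I:C) schedule, without saying which donors had it. At 4 weeks after poly(I:C) the donor marrow was mixed with an equal part of CD45.1 WT competitor marrow and transplanted into CD45.1 recipients. Treatment of the recipients was azacitidine (2.5 mg per kg) or the vehicle, 0.9% NaCl, on a 2-week schedule of 5 days on, 2 days off and 5 days on. The groups were R882H with azacitidine (5 libraries), R882H with NaCl (4), WT with azacitidine (3) and WT with NaCl (4). The labels do not say whether competitor cells were removed in the sort, nor whether each library is a separate recipient, so p-values measure the spread between libraries. In these bulk samples fewer cells of a type and less RNA per cell cannot be told apart.

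The libraries held 35860445 to 56012766 counts, of which repeat rows took 2.97 to 10.1%. The markers of the sort were read in every library, with Kit at 414 to 1279, Ly6a (Sca1) at 28.4 to 279, Cd34 at 386 to 1347 and Flt3 at 150 to 781 counts per 1000000 gene counts (CPM). A pair of libraries stood apart through rRNA, the share of which was 1.77% of counts in R882H NaCl replicate 1 and 3.41% in WT azacitidine replicate 1, against 0.241 to 1.03% in the other 14. The same pair had the highest repeat shares, 6.81% and 10.1%. Markers of other cells varied between libraries: the 6 B and plasma cell genes summed to 8126 to 27406 CPM in R882H azacitidine, 542 to 13099.6 in R882H NaCl, 556 to 15663 in WT azacitidine and 1679 to 23326 in WT NaCl. The sum of 7 erythroid and megakaryocyte genes was 599 to 898 in R882H azacitidine, 364 to 5267 in R882H NaCl, 713 to 1086 in WT azacitidine and 581 to 1064 in WT NaCl. Of these genes, Itga2b (252 to 328) and Car1 (179 to 349) were the highest in R882H azacitidine. The haemoglobin genes Hba-a1 and Hbb-bs had 0.804 to 11.1 and 0.118 to 5.47 there, against 3.34 to 214 and 1.97 to 76.5 in R882H NaCl. Itga2b went the other way, with 155 to 227 CPM in R882H NaCl. Medians of Gata1 and Pf4 were also higher in R882H azacitidine (55.8 and 79.9 CPM) than in R882H NaCl (49.5 and 58.9), with overlap. Those of Car1 and Klf1 were lower (233 and 60.25 against 561 and 122), with overlap.

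Which MaLR rows were read differed little between libraries. Levels are in CPM, the repeat count of a row over the gene count total of its library. Between 95 and 100 of the 101 rows had at least 1 read in a library, and together the rows took 88270 to 251919 reads. MTD was the highest row in 16 of 16 libraries, with 12.05 to 13.37% of all MaLR counts, and MTC was second in 16 of 16, with 7.02 to 7.82%. ORR1D1, the highest ORR1 row, took the third place in 15 of 16 libraries. ORR1F, MTA_Mm, ORR1A2 and ORR1E followed in an order that changed from library to library. The top 5 rows held 31.78 to 33.95% of MaLR counts and the top 10 held 49.68 to 52.22%. By class, ORR1 rows held 39.3 to 41.1%, MT rows 42.7 to 44.5% and MLT1 rows 15.1 to 17.4% of MaLR counts.

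Levels were also set against how much sequence each row covers. The files give 1 length per row, for MTD 13.3 Mb, far above a single element, and it is read here as the summed length of the counted copies. Per Mb of that length, the LTR rows of ORR1 averaged 26.4 CPM, those of MT 28.4 and those of MLT1 32.1 over the 16 libraries. Internal rows averaged 21.1 CPM per Mb in ORR1, 18.9 in MT and 25.2 in MLT1. In 20 of the 22 subgroups with both kinds of row, the internal rows were lower per Mb than the LTR rows. MLT1B (36.0 internal, 31.9 LTR) and MLT1J (75.0 internal, 36.9 LTR) were the exceptions.

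Set beside other repeats on the scale of CPM per Mb, the 101 MaLR rows together (26.8, over 121.7 Mb) lay close to old L1 elements (28.0) and above the other ERVL rows (18.9) and IAP, a family of young mouse retroviruses (18.4). SINE B1 and B2 rows had 138.8, MIR and L2, which are old and shared with other mammals, had 79.5, and young L1 rows had 2.95. All other repeat rows without rRNA, 1097 in number, had 36.7 together. How reads with several positions in the genome were counted is not given in the sources used here, which matters for young families with near-identical copies. Genes with a mean of at least 1 CPM had a median of 7373 CPM per Mb of their own length. In these counts a read from an element's own transcript and a read of the same element inside an intron or a UTR cannot be told apart.

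**Figure D1:**
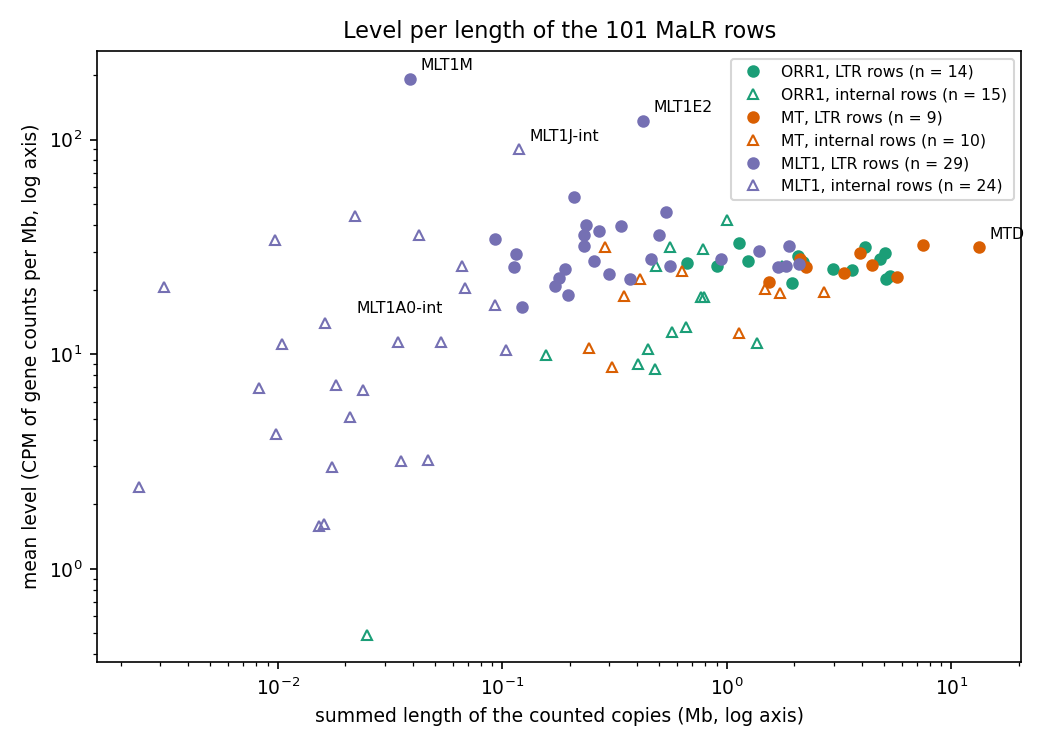
Mean level over 16 libraries, in CPM of gene counts per Mb (log axis), against the summed length of the counted copies in Mb (log axis) for 101 MaLR rows; filled circles are LTR rows and open triangles internal rows. Most LTR rows lie near their median of 27.1 CPM per Mb whatever their length, internal rows scatter below, and MLT1M, MLT1E2 and MLT1J-int lie far above.

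The MLT1 rows MLT1M, MLT1E2 and MLT1J-int, singled out after their values were seen, stood far above the others per Mb. MLT1M, an LTR row of 38856 bases, had 192 CPM per Mb, MLT1E2, an LTR row of 421491 bases, had 123, and MLT1J-int, the internal row with the highest level in its class, had 90.2. The median LTR row of MLT1 had 27.8 and the median internal row 10.8. MLT1E2 thus stood at 51.7 CPM, near the 55.5 CPM of MLT1A0, a row of 2100391 bases. At the other end, ORR1G-int had at most 2 reads and MLT1I-int at most 3 reads in any library.

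The 4 groups overlapped in the summed level of all 3 classes. The ORR1 rows summed to 1075, 1246, 1386, 1281 and 1137 CPM in R882H azacitidine, 1651, 973, 1169 and 1309 in R882H NaCl, 2489.7, 924 and 1565 in WT azacitidine, and 1008, 1487, 862 and 1303 in WT NaCl. The MT rows summed to 1162, 1339, 1522, 1407 and 1244 CPM in R882H azacitidine, 1842, 1074, 1252 and 1439.8 in R882H NaCl, 2756, 964 and 1745 in WT azacitidine, and 1076, 1629, 941 and 1438 in WT NaCl. The highest library in both sums was WT azacitidine replicate 1, and the second of the same group lay among the lowest libraries of the study.

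The MLT1 rows, although much older, had the same highest library and low values in the same WT azacitidine library. They summed to 468, 500.4, 580.4, 530.3 and 487 CPM in R882H azacitidine, 663, 365, 510.1 and 578 in R882H NaCl, 979, 357 and 656 in WT azacitidine, and 395, 569, 373 and 542 in WT NaCl. Group means of the ORR1 sum were 1225 ± 122 (SD, n = 5) in R882H azacitidine, 1275 ± 286 (n = 4) in R882H NaCl, 1659.5 ± 787 (n = 3) in WT azacitidine and 1165 ± 282 (n = 4) in WT NaCl. Without replicate 1 the WT azacitidine mean of the ORR1 sum was 1244 CPM (n = 2).

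**Figure D2:**
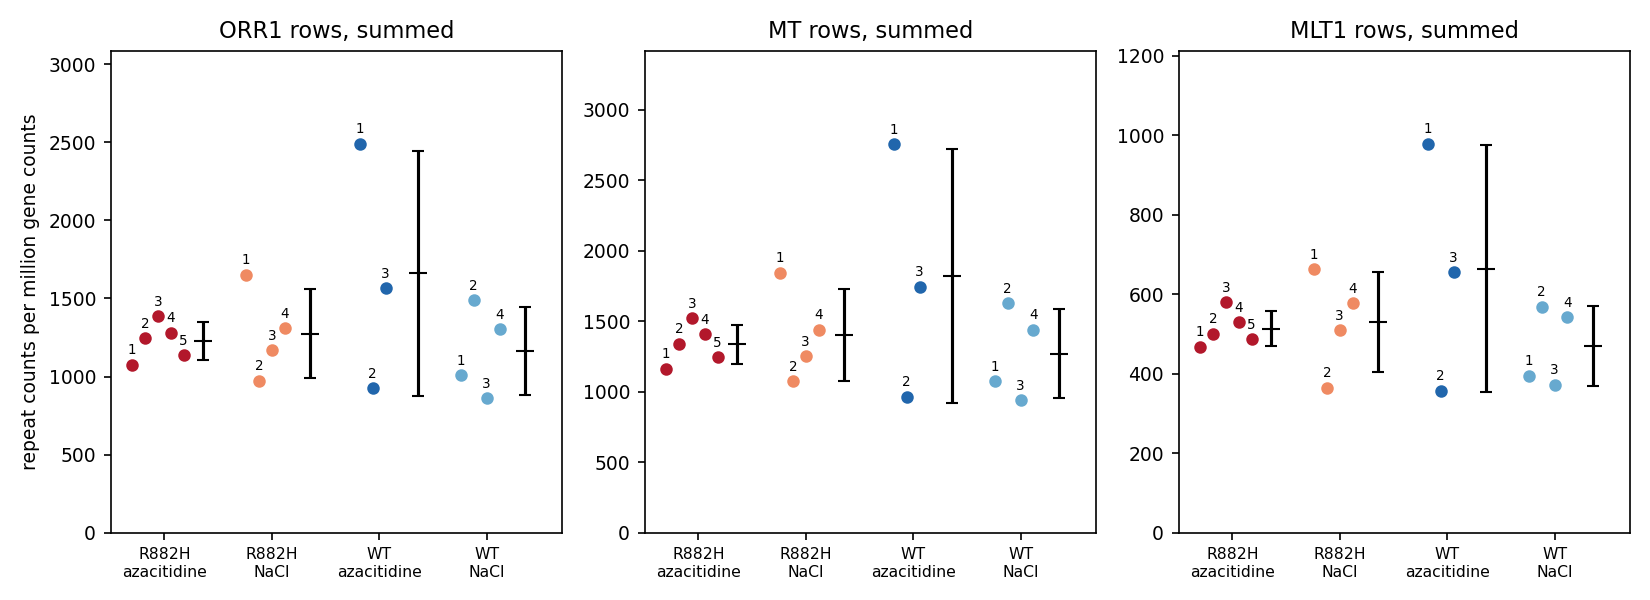
Summed level of the ORR1, MT and MLT1 rows in CPM of gene counts, 1 point per library with its replicate number, in 4 groups; bars are the mean and SD of each group. WT azacitidine replicate 1 lies highest in each panel, with 2489.7, 2756 and 979 CPM, and the 4 groups overlap.

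MaLR rows kept an almost fixed share of the repeat reads. The MaLR sum differed 2.86-fold between the lowest library (2176 CPM) and the highest (6225 CPM). Repeat counts without rRNA differed 2.80-fold, and MaLR rows made up 7.72 to 8.31% of them in R882H azacitidine, 7.65 to 8.73% in R882H NaCl, 7.18 to 8.38% in WT azacitidine and 7.76 to 8.67% in WT NaCl. The library with the highest MaLR level, WT azacitidine replicate 1, had a share of 8.38%, and the one with the lowest level, WT NaCl replicate 3, had 8.20%. Of the 75 MaLR rows with a mean count of at least 100, 71 varied less as a share of the other non-rRNA repeats than as a level; the median SD over libraries was 0.18 on the log2 scale for the share and 0.42 for the level. Over all 622 repeat rows with such counts the same held for 594, with medians of 0.21 and 0.45.

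**Figure D3:**
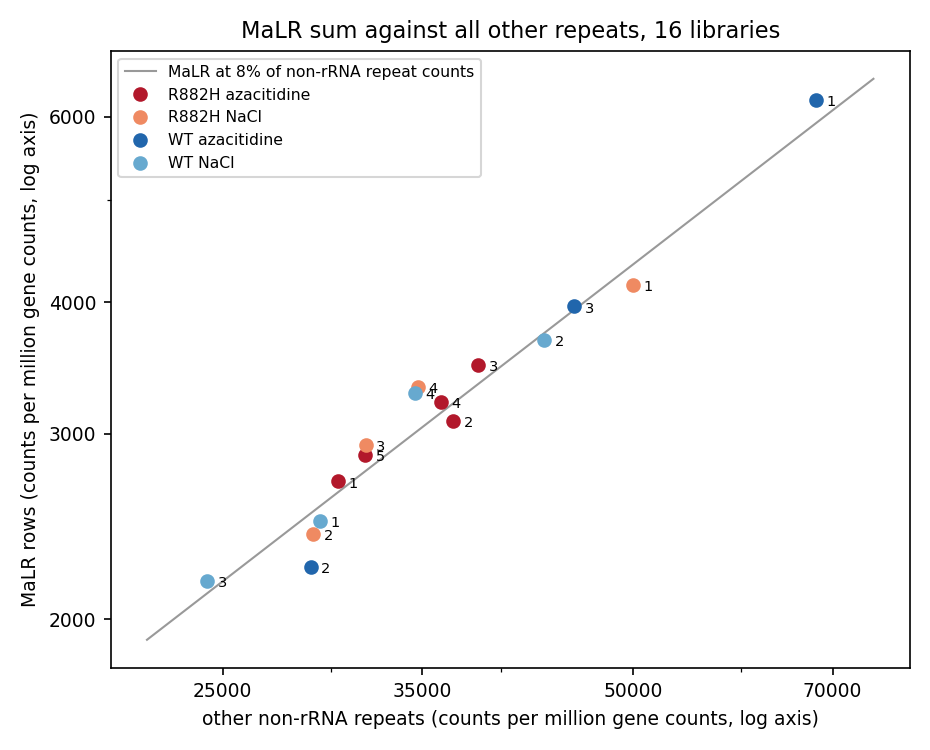
Summed level of the MaLR rows against the summed level of all other repeat rows without rRNA, both in CPM of gene counts on log axes, for 16 libraries in 4 groups, with replicate numbers; the line marks a share of 8%. All points lie near the line, between shares of 7.18 and 8.73%, while the MaLR level itself runs from 2176 to 6225.

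In the NaCl libraries the share differed by replicate number. Those numbered 1 and 2 had shares of 7.65 to 7.89% and those numbered 3 and 4 had 8.20 to 8.73%, in both genotypes. The same sets had 3.36 to 4.85% and 2.00 to 2.58% of their gene counts in ribosomal protein genes. The azacitidine libraries followed this only in part. Replicates 1 and 2 of R882H azacitidine had shares of 8.175 and 7.72%, under the 8.31, 8.182 and 8.28% of replicates 3 to 5, but replicate 1 only just. Replicates 1 to 3 of WT azacitidine had 8.38, 7.18 and 8.06%, without such a split. Ribosomal protein genes took 2.18, 2.87, 2.26, 2.40 and 2.33% of gene counts in R882H azacitidine, without such a split. In WT azacitidine they took 4.86, 3.94 and 3.06%, higher in replicates 1 and 2 as under NaCl. What a replicate number marks is not given in the labels, and the part of such differences in the share was not tested.

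Azacitidine in R882H cells left no MaLR row past the threshold. Of the 101 rows, 89 had enough counts to be tested (28 ORR1, 19 MT, 42 MLT1); the other 12 were internal rows, 1 of ORR1 and 11 of MLT1, with at most 21 reads in a library. Among 1024 repeat rows tested with edgeR at an adjusted p under 0.05, 0% were called in this comparison, and so were 0 of 89 MaLR rows; DESeq2 and limma-voom called 0 as well. At an unadjusted p under 0.05, 0 MaLR rows were higher and 2 were lower with azacitidine, against 0% and 1.17% of all repeat rows. The median log2 difference was -0.08 for the 47 ORR1 and MT rows, -0.08 for MLT1 rows and -0.12 for all repeat rows.

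The highest row of all, MTD, shows how small the difference was against the spread. It had 337, 401, 466, 415 and 372 CPM in R882H azacitidine, against 536, 304, 369 and 425 CPM in R882H NaCl, a log2 difference of -0.04 (SE 0.29). All azacitidine values lay inside the range of the NaCl values. The rows with the lowest p were MLT1-int and MLT1H2-int, both internal. MLT1-int had 0.668, 1.83, 1.16, 1.40 and 1.05 CPM in R882H azacitidine, against 4.52, 1.49, 1.10 and 1.77 CPM in R882H NaCl (log2 difference -0.85, SE 0.38, adjusted p 0.991). MLT1H2-int had 0 to 5 reads in R882H azacitidine and 1 to 25 in R882H NaCl, too few for a firm value. In both rows the highest NaCl library was replicate 1, which stands apart in rRNA, and the groups overlapped. Without that library the log2 difference of MLT1-int was -0.25 (adjusted p 0.999), and MLT1H2-int no longer had enough counts to be tested, as also without R882H NaCl replicate 4. Of the 89 tested rows, 0 MaLR rows had groups that did not overlap, against 0% higher and 0.391% lower among all repeat rows.

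In WT cells the MaLR rows lay higher in the azacitidine mean, and this rested on which of the 3 azacitidine libraries were used. Among all repeat rows edgeR called 3, or 0.293%, and among the 89 MaLR rows it called 0; DESeq2 and limma-voom called 0 of either. At an unadjusted p under 0.05, 12 MaLR rows were higher with azacitidine (2 ORR1, 1 MT and 9 MLT1) and 0 were lower, against 14.7% and 0% of all repeat rows. The log2 difference was positive for 47 of 47 ORR1 and MT rows and 40 of 42 MLT1 rows, and for 992 of 1024 repeat rows. Its median was 0.52 for ORR1 and MT, 0.55 for MLT1 and 0.56 for all repeat rows.

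Single rows show the spread behind these medians. MTD had 812, 271 and 525 CPM in WT azacitidine, against 316, 475, 281 and 422 CPM in WT NaCl (log2 difference 0.52, SE 0.32, adjusted p 0.279). The azacitidine group thus held both the highest and the lowest value. MLT1E, an LTR row, had 10.8, 1.74 and 5.33 CPM in WT azacitidine, against 2.26, 4.48, 1.11 and 2.73 CPM in WT NaCl (log2 difference 1.17, SE 0.42, adjusted p 0.275). MLT1C-int, an internal row with 4 to 42 reads in these libraries, had 1.04, 0.377 and 0.742 CPM in WT azacitidine, against 0.228, 0.242, 0.0986 and 0.421 CPM in WT NaCl (log2 difference 1.53, SE 0.59, adjusted p 0.275). In each row, replicate 1 was the highest azacitidine library and replicate 2 the lowest. Without replicate 1 the log2 differences were 0.09 for MTD, 0.42 for MLT1E and 1.17 for MLT1C-int, each with an adjusted p near 1. Without replicate 2 all 3 rows passed the threshold, with 0.84 for MTD (adjusted p 0.0250), 1.61 for MLT1E (adjusted p 0.0241) and 1.84 for MLT1C-int (adjusted p 0.0248).

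Without WT azacitidine replicate 2, edgeR called 65 of 92 MaLR rows tested higher with azacitidine (21 of 28 ORR1, 15 of 19 MT and 29 of 45 MLT1), while 55.5% of all repeat rows were called. Without replicate 1 it called 0 of 89, with 0% of all repeat rows, and the median log2 difference was 0.10 for ORR1 and MT and 0.11 for MLT1. Replicate 1 had an rRNA share of 3.41% and replicate 2 one of 1.03%, against 0.395 to 0.782% in WT NaCl, and their part in the result was not tested. Without replicate 3, 0 of 92 were called, beside 0.385% of all repeat rows. A fit with 2 azacitidine libraries assumes that they vary like the other groups. Only ORR1A1-int, an internal row of ORR1, had groups that did not overlap, 1 of 89, against 3.22% of all repeat rows, and 0 MaLR rows were lower without overlap, against 0%. It had 52.5, 31.8 and 30.5 CPM in WT azacitidine, against 21.8, 27.7, 18.3 and 17.7 CPM in WT NaCl, and its adjusted p was 0.275 (log2 difference 0.84, SE 0.33).

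The other leading rows followed MTD. ORR1F, the second ORR1 row, had 108 to 146 CPM in R882H azacitidine and 94.9 to 160 CPM in R882H NaCl, and 289, 86.2 and 166 CPM in WT azacitidine and 80.1 to 155 CPM in WT NaCl. MLT1B, the highest MLT1 row, had 55.4 to 66.0 CPM in R882H azacitidine and 39.1 to 66.9 CPM in R882H NaCl, and 109, 44.9 and 72.3 CPM in WT azacitidine and 41.8 to 62.6 CPM in WT NaCl. The highest internal rows of ORR1 and MT, ORR1A2-int and MTA_Mm-int, also had WT azacitidine replicate 1 as their highest library. ORR1A2-int had 76.2, 31.7 and 55.3 CPM in WT azacitidine, against 30.5 to 47.7 CPM in WT NaCl, and MTA_Mm-int had 87.9, 47.6 and 56.3 CPM in WT azacitidine, against 37.6 to 60.7 CPM in WT NaCl. In these 4 rows the groups overlapped, with log2 differences of 0.42 to 0.62 in WT cells and of -0.23 to 0.06 in R882H cells. MLT1J-int, the highest internal row of MLT1, did not follow them. It had 10.9, 12.7, 10.7, 9.93 and 8.24 CPM in R882H azacitidine and 15.7, 3.74, 9.51 and 20.04 CPM in R882H NaCl, and 12.1, 6.97 and 11.2 CPM in WT azacitidine and 6.03, 9.64, 8.50 and 15.6 CPM in WT NaCl. Its highest library was R882H NaCl replicate 4, and its groups overlapped.

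The azacitidine difference averaged over both genotypes gave no MaLR call either, 0 of 89 beside 0% of all repeat rows in edgeR, and 0 in DESeq2 and limma-voom. It had 1 MaLR row higher at an unadjusted p under 0.05, MLT1C-int (log2 difference 0.82, SE 0.39, adjusted p 0.73), and 0 lower, against 3.42% and 0.195% of all repeat rows. The medians were 0.21 for ORR1 and MT rows, 0.24 for MLT1 rows and 0.22 for all repeat rows. With 1 library left out, the median of ORR1 and MT rows ran from 0.012 to 0.37 and that of MLT1 rows from 0.031 to 0.41. Scaled within the repeat rows, these 2 medians were 0.0024 and 0.0038.

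The response of R882H cells minus that of WT cells was tested as an interaction. For it edgeR called 0.195% of all repeat rows and 0 of 89 MaLR rows; DESeq2 and limma-voom called 0. A positive interaction at an unadjusted p under 0.05 was found for 0 MaLR rows and a negative one for 10 (2 ORR1, 1 MT and 7 MLT1), against 0% and 12.4% of all repeat rows. The median was -0.61 for ORR1 and MT, -0.66 for MLT1 and -0.68 for all repeat rows. The rows with the lowest p were MLT1-int (log2 interaction -1.72, SE 0.58, adjusted p 0.347) and ORR1C1-int, an internal row of ORR1 (log2 interaction -1.28, SE 0.50, adjusted p 0.347). ORR1C1-int had 3.34, 3.21, 4.11, 3.71 and 3.87 CPM in R882H azacitidine and 7.48, 3.95, 5.09 and 4.52 CPM in R882H NaCl, and 11.5, 2.72 and 6.04 CPM in WT azacitidine and 3.20, 5.37, 2.29 and 5.20 CPM in WT NaCl. Both genotypes overlapped between treatments. The value of ORR1C1-int was -0.65 (adjusted p 1) without WT azacitidine replicate 1 and -1.65 (adjusted p 0.0498) without replicate 2. That of MLT1-int was -1.26 (adjusted p 1) without replicate 1, -1.99 (adjusted p 0.0498) without replicate 2 and -1.12 without R882H NaCl replicate 1. Without WT azacitidine replicate 2, 7 of 92 MaLR rows were called, beside 8.36% of all repeat rows; without replicate 1, 0 of 89 were, beside 0%, and the medians were -0.15 for ORR1 and MT and -0.19 for MLT1. Without replicate 3, 0 of 92 were called, beside 0.288%.

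Under NaCl, R882H and WT cells did not differ past the threshold in any MaLR row: edgeR called 0% of all repeat rows and 0 of 89 MaLR rows, and DESeq2 and limma-voom called 0. At an unadjusted p under 0.05, 1 MaLR row was higher in R882H cells and 0 were lower, against 1.56% and 0.0977% of all repeat rows. That row was MLT1H2-int, with 1 to 25 reads in R882H NaCl and 1 to 8 in WT NaCl. Without R882H NaCl replicate 1 or replicate 4 it had too few counts to be tested. The median log2 difference was 0.14 for ORR1 and MT rows, 0.18 for MLT1 rows and 0.17 for all repeat rows. MTC, the row of the LTR that serves the oocyte form of Dicer, had 314, 172, 206 and 241 CPM in R882H NaCl, against 184, 288, 154 and 247 CPM in WT NaCl (log2 difference 0.10, SE 0.31). ORR1D1 had 199.8, 118, 128 and 146 CPM in R882H NaCl, against 114, 169, 97.9 and 150.1 CPM in WT NaCl (log2 difference 0.16, SE 0.30). The groups overlapped in both rows and in all 89 tested MaLR rows, while 0.586% of all repeat rows lay higher in every R882H library and 0% lower.

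Under azacitidine, 1 MaLR row fell past the threshold in R882H relative to WT cells, the internal row MLT1A0-int. It had 0.646, 0.933, 0.686, 1.23 and 0.858 CPM in R882H azacitidine, against 3.71, 2.29 and 1.72 CPM in WT azacitidine, from 29 to 59 and 65 to 150 reads. The log2 difference was -1.56 (SE 0.39, adjusted p 0.0443 in edgeR), and every R882H value lay under every WT value. DESeq2 called it (adjusted p 0.0184) and limma-voom did not (adjusted p 0.0675). Under NaCl the same row had 1.38, 0.882, 1.37 and 0.952 CPM in R882H cells, against 1.23, 2.20, 1.04 and 1.16 CPM in WT cells. Its LTR partner MLT1A0 had 45.8, 49.4, 64.6, 56.4 and 54.0 CPM in R882H azacitidine, against 102, 32.6 and 71.7 CPM in WT azacitidine (log2 difference -0.35, SE 0.32), with groups that overlapped.

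The call on MLT1A0-int was 1 of 89 MaLR rows, beside 0.391% of all repeat rows; DESeq2 called 0.0977% and limma-voom 0.391% of all repeat rows. The direction was the same in each fit with 1 library left out, but the call ended in 8 of those 16 fits, with an adjusted p of 0.0609 to 1. The libraries were R882H azacitidine replicates 1, 2, 3 and 5, R882H NaCl replicate 4, WT azacitidine replicate 1 and WT NaCl replicates 1 and 4. Without WT azacitidine replicate 1 the log2 difference was -1.20 with an adjusted p of 1, and scaled within the repeat rows it was -1.19 with an adjusted p of 0.514. The call also ended with the replicate number as a block (log2 difference -1.54, adjusted p 0.31) and with a term for the number set, replicates 1 and 2 against 3 to 5 (-1.47, adjusted p 0.15). The same groups differed without overlap in rRNA, 0.256 to 0.516% of counts in R882H azacitidine against 0.693 to 3.41% in WT azacitidine, and in ribosomal protein genes, 2.18 to 2.87% against 3.06 to 4.86% of gene counts. The part of either in the result was not tested. All 6 B and plasma cell markers had reads in these 8 libraries, and their sums overlapped, 8126 to 27406 CPM in R882H azacitidine against 556 to 15663 CPM in WT azacitidine.

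Other MaLR rows were lower in R882H azacitidine in the mean as most repeats were. At an unadjusted p under 0.05, 0 MaLR rows were higher and 10 lower (3 ORR1, 0 MT and 7 MLT1), against 0.195% and 14.6% of all repeat rows. The median log2 difference was -0.46 for ORR1 and MT, -0.46 for MLT1 and -0.51 for all repeat rows. MLT1E had 2.11, 2.93, 3.07, 2.73 and 2.06 CPM in R882H azacitidine, against 10.8, 1.74 and 5.33 CPM in WT azacitidine, with overlap (log2 difference -1.21, SE 0.39, adjusted p 0.298). Without WT azacitidine replicate 1 that difference was -0.45 (adjusted p 1), and without replicate 2 it was -1.64 and passed the threshold (adjusted p 0.0214). MLT1A0-int, ORR1A0-int and ORR1A1-int, 3 of 89 rows, were lower in every R882H library, against 4.69% of all repeat rows, and 0 were higher in every one, against 0.0977%. ORR1A1-int had 15.9, 19.7, 24.4, 21.4 and 19.2 CPM in R882H azacitidine, against 52.5, 31.8 and 30.5 CPM in WT azacitidine (log2 difference -0.93, SE 0.31, adjusted p 0.298). ORR1A0-int had 15.6 to 17.1 CPM in R882H azacitidine, against 30.1, 17.2 and 21.0 CPM in WT azacitidine (log2 difference -0.48, SE 0.32, adjusted p 0.305). Without WT azacitidine replicate 2, 58 of 92 MaLR rows were called lower, beside 52.4% of all repeat rows; without replicate 1, 0 of 89 were, beside 0%. Without replicate 3, 1 of 92 was called, beside 0.673%.

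**Figure D4:**
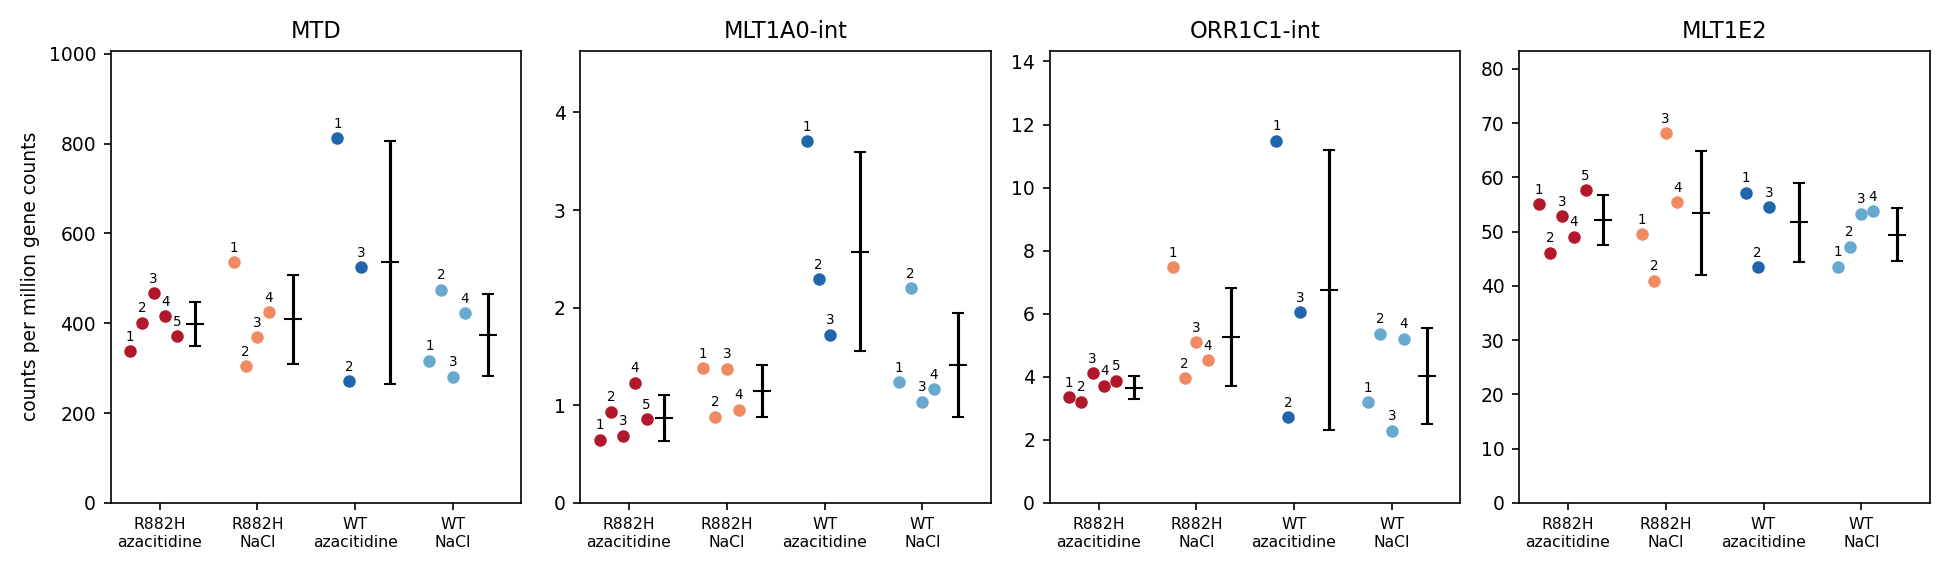
Level of MTD, MLT1A0-int, ORR1C1-int and MLT1E2 in CPM of gene counts, 1 point per library with its replicate number, in 4 groups; bars are the mean and SD of each group. MLT1A0-int in R882H azacitidine (0.646 to 1.23) lies under WT azacitidine (1.72 to 3.71), MTD and ORR1C1-int overlap, and MLT1E2 stays between 40.9 and 68.1 in all libraries.

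Scaled within the repeat rows in place of the gene total, the medians of the MaLR classes lay near 0. With the trimmed mean of M-values (TMM) over the non-rRNA repeat rows, the medians of the azacitidine difference in R882H cells were 0.03 for ORR1 and MT and 0.02 for MLT1. In WT cells they were -0.04 for ORR1 and MT and -0.03 for MLT1. For R882H against WT under azacitidine they were 0.02 for ORR1 and MT and 0.06 for MLT1. The biological coefficient of variation of the repeat fit was 18.8% under this scaling and 35.5% under the gene total. In each of the 6 comparisons edgeR called 0 of 89 MaLR rows, beside 0% of all repeat rows. These 89 rows are not all the same as at the gene total: MLT1H2-int was not tested here and another MLT1 row entered. With an unadjusted p under 0.05, 0 MaLR rows were higher and 2 lower for azacitidine in R882H cells, against 1.18% and 1.96% of all repeat rows. For azacitidine in WT cells 1 was higher and 1 lower (2.74% and 1.57%), for both genotypes averaged 1 and 0 (1.96% and 1.86%), and for the interaction 1 and 2 (1.67% and 2.84%). For R882H against WT, 0 were higher and 1 lower under NaCl (1.18% and 1.67%), and 5 higher and 3 lower under azacitidine (2.94% and 3.72%). MTD then differed by 0.06 (log2, SE 0.05) between R882H azacitidine and R882H NaCl and by -0.05 (SE 0.06) between WT azacitidine and WT NaCl. This scaling sets the repeats as a whole to no change, so it speaks only of differences among repeats.

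As a share of the non-rRNA repeat counts, few MaLR rows had groups that did not overlap. With azacitidine in R882H cells, ORR1A3 was higher in every azacitidine library and MTD-int and ORR1C1-int were lower, 1 and 2 of 89 rows, against 0.195% and 1.27% of all repeat rows. In WT cells MLT1C-int was higher and 0 rows were lower, against 2.15% and 1.76%. For R882H against WT under NaCl, 0 rows were higher and ORR1A3 was lower, against 0.586% and 0.781%. Under azacitidine MLT1G3 and MLT1J-int were higher and MLT1A0-int and ORR1A1-int lower in R882H cells, against 1.86% and 3.32%.

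**Figure D5:**
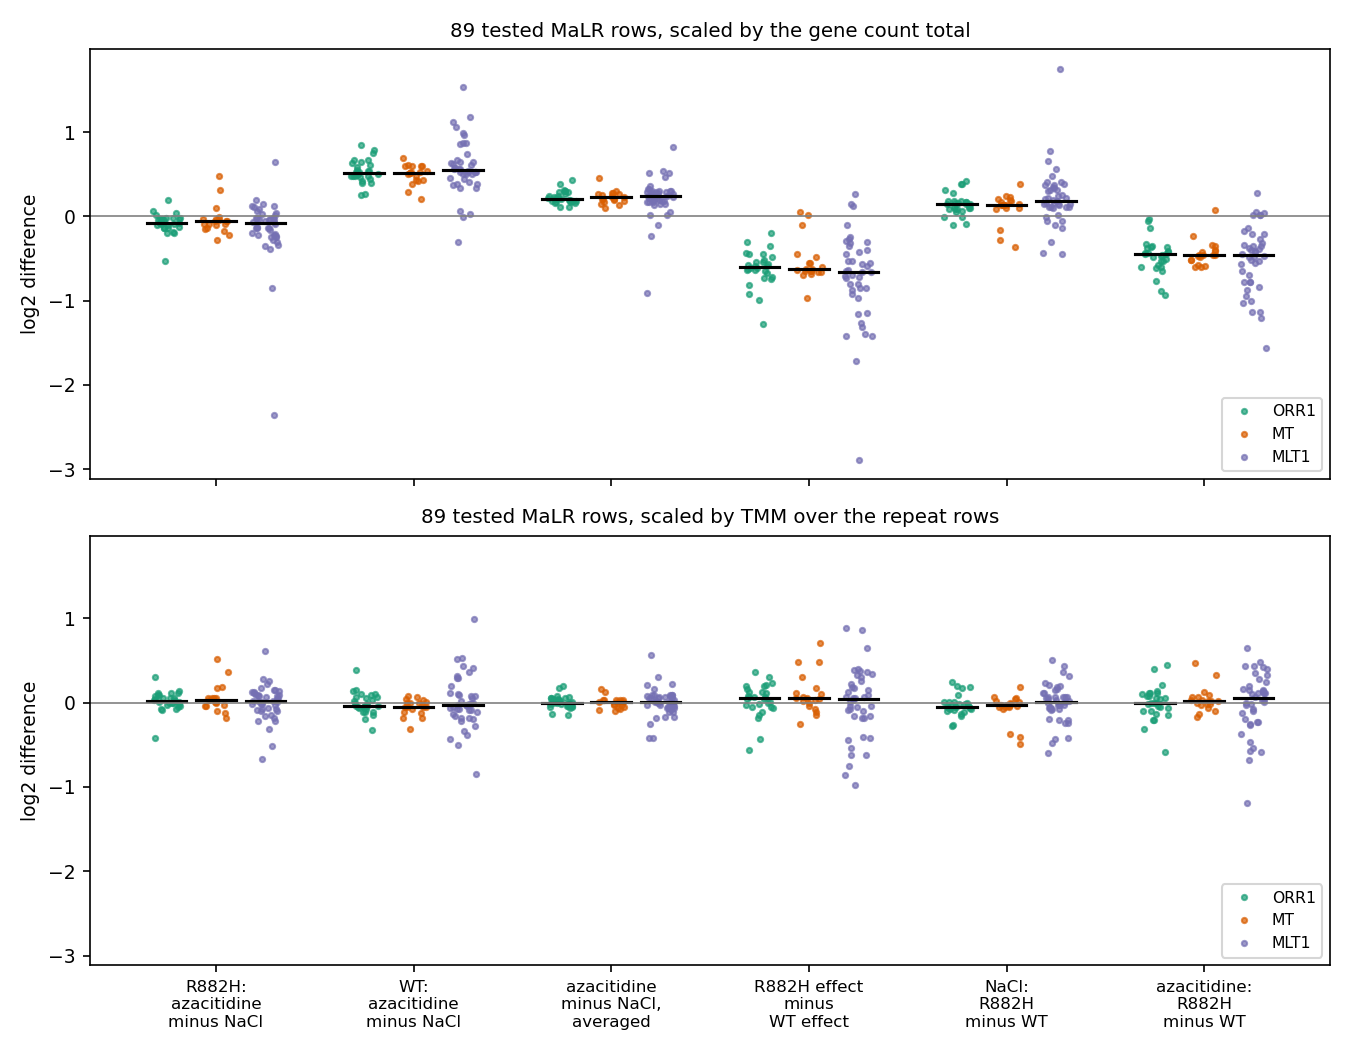
Log2 differences of the tested MaLR rows in 6 comparisons, by class. The upper panel is scaled by the gene count total and the lower one by TMM over the repeat rows. Each panel holds 89 rows, but MLT1H2-int is in the upper one only. Points are rows and black lines are class medians. The medians of WT azacitidine against WT NaCl lie near 0.5 in the upper panel and near 0 in the lower one, and the medians of the 3 classes lie close to each other in both.

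Within the repeat reads, a few MaLR rows departed from the common pattern. MLT1E2, MLT1M, MTEb-int and ORR1A4-int were the 4 of 75 rows that varied more as a share than as a level. MLT1E2 varied least of all in level, with an SD of 0.19 on the log2 scale against 0.37 for its share. It had 55.0, 46.1, 52.8, 49.0 and 57.7 CPM in R882H azacitidine and 49.5, 40.9, 68.1 and 55.5 CPM in R882H NaCl. In WT azacitidine it had 57.2, 43.5 and 54.5 CPM, against 43.5, 47.2, 53.3 and 53.7 CPM in WT NaCl. In WT azacitidine replicate 1, where the ORR1 and MT sums were highest, it stood inside the range of the other libraries. ORR1A4 varied least as a share, with an SD of 0.06, and MLT1J-int most, with 0.51; MLT1J-int is also the internal row that stood out per Mb.

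None of the listed genes that silence LTRs or act on DNA methylation passed the threshold. The list also holds Tet2 and Tet3, which oxidise methylcytosine. Of its 31 genes, 31 were tested with all genes, and in each of the 6 comparisons edgeR called 0, also with the replicate number as a block. The CPM of the genes of this list are over the gene count total scaled by TMM over genes, unlike the plain total used above. Dnmt1, the maintenance methyltransferase, had 364 ± 115 CPM in R882H azacitidine (SD, n = 5), 319 ± 136 in R882H NaCl (n = 4), 256 ± 18.6 in WT azacitidine (n = 3) and 321 ± 91.7 in WT NaCl (n = 4). The log2 difference of azacitidine against NaCl was 0.19 (SE 0.30) in R882H cells and -0.32 (SE 0.34) in WT cells. Uhrf1, which brings DNMT1 to replicated DNA, differed by 0.14 (SE 0.20) in R882H cells and by -0.25 (SE 0.23) in WT cells.

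Of the histone side, Trim28, the corepressor that KRAB zinc finger proteins recruit to LTRs, differed by 0.02 (SE 0.13) in R882H cells and by -0.04 (SE 0.14) in WT cells. Setdb1, the H3K9 methyltransferase at the same sites, differed by -0.01 (SE 0.22) and 0.05 (SE 0.25) in those comparisons. The Dnmt3a row had 96.6 ± 4.73 CPM in R882H azacitidine (n = 5), 90.3 ± 19.3 in R882H NaCl (n = 4), 104 ± 33.8 in WT azacitidine (n = 3) and 96.8 ± 10.1 in WT NaCl (n = 4). The human allele has no row of its own among those used here, and whether its reads were counted in the Dnmt3a row was not tested. Among all 18345 genes tested, edgeR called 0.00545% for azacitidine in R882H cells, 0% in WT cells, 0.0218% averaged, 0% in the interaction, 0.00545% for R882H against WT under NaCl and 0% under azacitidine.

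Tet3, a methylcytosine dioxygenase, was the gene of this list with the lowest unadjusted p. It had 28.9 ± 4.98 CPM in R882H azacitidine (SD, n = 5) and 75.7 ± 64.1 CPM in WT azacitidine (n = 3), a log2 difference of -1.39 (SE 0.40, adjusted p 0.542 in edgeR). Counted at an unadjusted p under 0.05, 0 of the 31 genes were higher and 0 lower with azacitidine in R882H cells, against 2.28% and 4.34% of all genes. In WT cells 1 was higher (Tet3) and 0 lower, against 3.8% and 2.11%. Averaged over genotypes 0 were higher and 0 lower, against 2.98% and 3.85%, and in the interaction 0 were higher and 1 lower (Tet3), against 1.19% and 4.68%. Between R882H and WT under NaCl 0 were higher and 0 lower, against 3.59% and 1.93%. Under azacitidine 0 were higher and 3 lower in R882H cells (Tet3, Cbx3 and Cbx5), against 2.84% and 6.31%.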

How the data were processed

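RNA was sequenced from 16 libraries of sorted LSK cells. Per the labels' protocols, RNA with a RIN under 8 was left out, the cDNA kit was one for small inputs, and inserts measured about 200 bp. The submitters' processing notes name HISAT2 2.0.5, featureCounts 1.6.2, edgeR 3.26.6 and GRCm38; strand and multi-mapping settings are not given in the sources used here. The deposited count tables hold raw counts per gene and per repeat and a length in bases for each row. The deposited FPKM tables of the authors hold the same counts per length over 1 library size per library and were used only to check this.

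Repeat counts were scaled by the gene count total. All repeat rows passing filterByExpr (1024 of 1201) were fitted with edgeR 4.0.16 (quasi-likelihood, R 4.3.3), with 1 coefficient for each of the 4 groups and no other factor. P-values are two-sided and adjusted by Benjamini-Hochberg over those rows; calls are at an adjusted p under 0.05. Genes (18345 of 30141 tested) were fitted likewise, with TMM. Same-numbered libraries of R882H NaCl and WT NaCl deviated together over genes (correlations of 0.13 to 0.413, 4 of 4 pairs over 0.1); what the numbers mark is not given. DESeq2 1.42.0 and limma-voom (limma 3.58.1), other scalings, no filter, number sets and left-out libraries were alternatives. Only the edgeR fit of repeat rows at the gene total was tested on simulated data, for azacitidine against NaCl in each genotype. Those counts were drawn for each row on its own, without a shift shared by the repeats of a library. SDs of log2 levels and shares used rows with a mean count of at least 100 and a pseudocount of 0.5. Between libraries of a group the chi-square per gene was at least 42.0 in 25 pairs, so none is a copy of another. Reads carry no molecular identifiers, and depth covers counting error only.

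Rows named by rule are those called, the 2 highest rows and the highest internal row of each class, and up to 2 rows with the lowest p under 0.05 per direction and comparison; Dnmt1, Uhrf1, Dnmt3a, Trim28 and Setdb1 were named among the genes of silencing and DNA methylation. MLT1M, MLT1E2, MLT1G3, MTEb-int, ORR1A3, ORR1A4, ORR1A4-int, ORR1A0-int, ORR1A1-int, MTD-int, Tet3, Cbx3 and Cbx5 were chosen after their values were seen. The members and lists were chosen with earlier results of these data known.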

Additional observations from a re-analysis of the deposited data

Results flagged for a closer look

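In 63 checks of single groups of 4 or 5 libraries, each over a class sum, a share or a row described above, 5 values lay apart from the rest of their group; chance flags about 1 in 20 groups. The MaLR share of non-rRNA repeat counts in R882H azacitidine replicate 2 was 7.72%, against 8.18 to 8.31% in the other libraries of its group. In that library 6 mature neutrophil genes summed to 620 CPM, against 2.31 to 8.74 CPM in the others of the group. Their part in the share was not tested. MLT1M in R882H azacitidine replicate 1 had 6.01 CPM, against 8.42 to 9.15 CPM in the others. MLT1E in R882H NaCl replicate 1, a library that also stands apart in rRNA, had 5.63 CPM, against 2.10 to 2.35 CPM. MLT1A0 in R882H NaCl replicate 2 had 37.8 CPM, against 59.6 to 63.0 CPM. MLT1A0-int in WT NaCl replicate 2 had 2.20 CPM, against 1.04 to 1.23 CPM; this group is not in the comparison that called the row.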

How the results depend on the processing

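Over 52 results and 32 settings, 1322 of 1405 alternative values counted as unchanged. For a count of calls this meant the same count, and for a median a move by less than the spread between libraries. For a named row it meant the same side of the threshold, whatever its sign. The count of MaLR rows called in R882H against WT cells under azacitidine, 1 as reported, was 0 under TMM over repeat rows, limma-voom, genes and repeats fitted together, a term for the number set (replicates 1 and 2 against 3 to 5), replicates 1 and 2 only, replicates 3 to 5 only, both libraries with high rRNA left out (with either scaling) and the groups of the contrast only; the cause was not tested. With 1 library left out it ran from 0 to 58, against 0 to 65 for azacitidine in WT cells and 0 to 7 for the interaction.

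Median log2 differences are given for azacitidine in WT cells, for the interaction and for R882H against WT cells under azacitidine, in that order. For ORR1 and MT rows they were -0.039, 0.050 and 0.015 under TMM over repeat rows, 0.10, 0.0037 and -0.020 without both high-rRNA libraries, and -0.013, 0.027 and 0.016 with both changes, an alternative chosen after seeing the data. With 1 library left out they ran from 0.10 to 0.81, from -0.91 to -0.15 and from -0.76 to -0.020. For MLT1 rows the same settings gave -0.030, 0.040 and 0.055, then 0.11, 0.0069 and 0.025, then -0.025, 0.044 and 0.069, and with 1 library left out 0.11 to 0.89, -0.95 to -0.19 and -0.75 to 0.023. These shifts compare with a within-group SD of 0.40 (log2) for the summed ORR1 and MT rows and 0.39 for MLT1. Named rows changed sign, uncalled both times, in 71 of 847 values, which are counted above as unchanged. Class medians counted as unchanged also changed sign. For azacitidine in R882H cells this held in 5 (ORR1 and MT) and 7 (MLT1) of 31 settings. Averaged over genotypes it held in 2 and 1 of 30, and for R882H against WT under NaCl in 4 and 0 of 31. With 1 library left out, the ORR1 and MT medians ran from -0.19 to 0.083 in R882H cells and from -0.015 to 0.28 under NaCl. Those of MLT1 ran from -0.21 to 0.12 and from 0.019 to 0.33.

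Deviations of same-numbered libraries correlated at -0.26 to 0.53 over repeat rows (4 of 14 pairs over 0.1), -0.105 to 0.361 with TMM over repeat rows (5 of 14) and -0.159 to 0.417 over genes (8 of 14). All 4 pairs of the NaCl groups were over 0.1 over genes and with TMM over repeat rows, but 2 of 4 over repeat rows at the gene total; in the other comparisons not every pair was. The block called 0 MaLR rows and 0 silencing genes between the NaCl groups, as without it (for genes chosen after seeing the data). With a replicate block the count for R882H against WT under azacitidine was 0, also with TMM over repeat rows, an alternative chosen after seeing the data. That fit gave medians of -0.044, 0.044 and 0.021 for ORR1 and MT rows and -0.023, 0.013 and 0.018 for MLT1 rows in the 3 comparisons above.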
